A study of Homo sapiens with 24 samples.

Results

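The genes described here are 7 caspases (CASP1, CASP2, CASP4, CASP6, CASP8, CASP9 and CASP10) and CFLAR, 8 of the 30982 gene names on the array. They were chosen by their names, and the group was picked because CASP8 had been seen to be higher with Si306 on both of its measured probes. Every gene probe that carries one of these names was taken, which gave 17 probes, of which 15 were well above background often enough to be kept and 2 were not (CASP2 A_23_P215701 and CASP8 A_24_P148499, above background on none of the 8 arrays). U87 MG is an established human glioblastoma cell line. Its cells were irradiated with protons (PT) and their RNA was taken 24 h later and compared on Agilent 2-colour arrays, with the treated RNA in the red dye Cy5 and the control in the green dye Cy3 on all arrays. In U87 2 Gy and U87 10 Gy the irradiated cells were set against untreated cells. In U87 Si306 + 2 Gy, and likewise in U87 Si306 + 10 Gy, cells given 10 µM Si306, a pyrazolopyrimidine inhibitor of the tyrosine kinase SRC, and then the same dose were set against cells given that dose of PT alone. No cells given Si306 without PT were analysed here, so the Si306 comparisons describe the compound on irradiated cells.

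Caspases are cysteine proteases that wait in the cell as inactive precursors and cut chosen proteins once activated. CASP8 and CASP10 are the initiators that death receptors recruit, CFLAR is their catalytically inactive relative that competes for the same receptor complex, CASP9 is the initiator activated on the apoptosome after mitochondrial damage, and CASP2 is an initiator linked to the PIDD1 platform. CASP6 acts downstream, with lamins among its substrates, while CASP1 and CASP4 are inflammatory caspases that cut gasdermin D. CASP8 matters in brain tumours because some of them silence it. The arrays measure RNA, and caspases are controlled largely by cleavage of the protein, which was not measured.

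The labels name 6 replicates for each configuration, but the headers of the files show 8 arrays on 2 slides, scanned 3 times each. Scans of an array were therefore averaged, 2 scans labelled with another dose than the rest of their array were set aside, and every value below rests on 2 arrays per configuration (n = 2). Nothing in the labels ties the 2 arrays of a configuration to separate cultures, so the p-values measure only the spread between arrays, which may be technical. Of all probes, 64.1% to 74.8% were well above background per array in Cy5 and 56.8% to 64.8% in Cy3. No array had the dyes swapped, so a dye effect of a probe and the treatment cannot be told apart within a configuration, whereas such an effect cancels in the difference between 10 Gy and 2 Gy. The arrays of PT alone lay on one slide and those with Si306 on the other. Before normalization the median log2 ratio of Cy5 to Cy3 lay between 0.59 and 1.56 over the arrays. Loess, an intensity-dependent centring, set it near 0, so all ratios are relative to the bulk of the probes. Of the 4 mesenchymal markers examined, VIM, CD44 and FN1 were above background in both dyes on 8 of 8 arrays and CHI3L1 on 4. Of the 4 glial markers GFAP was on 8, SOX2 on 4, OLIG2 on 3 and S100B on none. Of the markers of other cell types PTPRC was on none, PECAM1 on 4, CD3E on 5 and EPCAM on 6. With Si306 + 2 Gy and Si306 + 10 Gy, EPCAM was at 0.33 and 0.31 (SE 0.041), PECAM1 at 0.28 and 0.27 (SE 0.032) and CD3E at 0.12 and 0.20 (SE 0.039), and their part in the Si306 results was not tested.

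Probes that carry the findings on CASP8 and CASP9 are shown first, as 30 bases taken from the array's own probe sequences, 5′ to 3′, because the results turn on these probes.
CASP8 A_24_P157087: aatccagctatgaatatagagggcttatga
CASP9 A_23_P97309: agtaacgcgtcttcctgagtggtgccaaac
CASP9 A_24_P111342: acacacaaaccagtatcgctcatagatcag
In the hg17 coordinates of the files, CASP8 A_24_P157087 lies at chr2:201977344-201977403 on the plus strand, and both CASP8 probes that were kept are assigned to the transcript NM_033356. The CASP9 probes lie at chr1:15564285-15564344 and chr1:15564168-15564227 on the minus strand, only 57 bases apart, and both are assigned to NM_001229. No annotation of that build was given, so exons and untranslated regions are not stated.

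CASP8 had the highest ratios of the 8 genes in the Si306 comparisons, though not with local backgrounds as deposited (0.23 and 0.07 on A_23_P209389, 0.23 and 0.11 on A_24_P157087, beside 0.29 and 0.31 on CASP9 A_23_P97309) nor, on A_23_P209389 with Si306 + 10 Gy, without loess (0.57 beside 0.71 on CASP9 A_23_P97309), whereas PT alone moved it little. Probe A_23_P209389, which the array prints in 10 spots, had log2 ratios of 0.86 and 0.73 on the 2 arrays of U87 Si306 + 2 Gy and of 0.45 on both arrays of U87 Si306 + 10 Gy. The means were 0.79 (1.73-fold, SE 0.038, n = 2) and 0.45 (1.37-fold, SE 0.038, n = 2). With PT alone it stood at 0.03 and 0.11 after 2 Gy and at 0.14 and 0.12 after 10 Gy, on the other slide and against untreated cells. Probe A_24_P157087 had log2 ratios of 1.23 and 0.86 in U87 Si306 + 2 Gy, and of 1.28 and 1.36 in U87 Si306 + 10 Gy. Its means were 1.05 (SE 0.07, n = 2), with the control RNA well above background on 1 of the 2 arrays, and 1.32, in this fit at least 2.5-fold over the 2 arrays because the control was not well above background on either. Since both means rest on a control near background, they give no order of the doses. These Si306 values chose the genes and are given as a description, with no test.

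The mean signals behind the CASP8 ratios are given before background correction and normalization. For A_23_P209389 the Cy5 signal was 680 and 534.6 scanner units in U87 Si306 + 2 Gy, against 444 and 473.1 in U87 2 Gy, and the Cy3 signal was 136.7 and 146.2 against 229.9 and 203. In U87 Si306 + 10 Gy the Cy5 signal was 411.3 and 427.5 and the Cy3 signal 185.5 and 181.9. Such signals are not normalized between arrays, so brightness is not compared across slides. For A_24_P157087 the Cy5 signal was 516.3 and 395.8 with Si306 + 2 Gy and 288 and 307.8 with Si306 + 10 Gy. On the 4 arrays of PT alone, on the other slide, it lay between 100.5 and 131.3, and these ranges are not compared. For CASP10 A_23_P209408 the Cy5 signal was 746.2 and 487.9 with Si306 + 2 Gy and 238.3 and 206.8 in U87 2 Gy. Its log2 ratios with Si306 + 2 Gy were nevertheless 0.01 and 0.00. For CASP8 A_24_P157087 the controls are given next. The Cy3 signal of CASP8 A_24_P157087 stayed between 79.62 and 107.9 on all 8 arrays and was above background on 4 of them. The Cy3 RNA of the Si306 arrays is PT alone, so on this probe the control was near background on both slides.

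**Figure D1:**
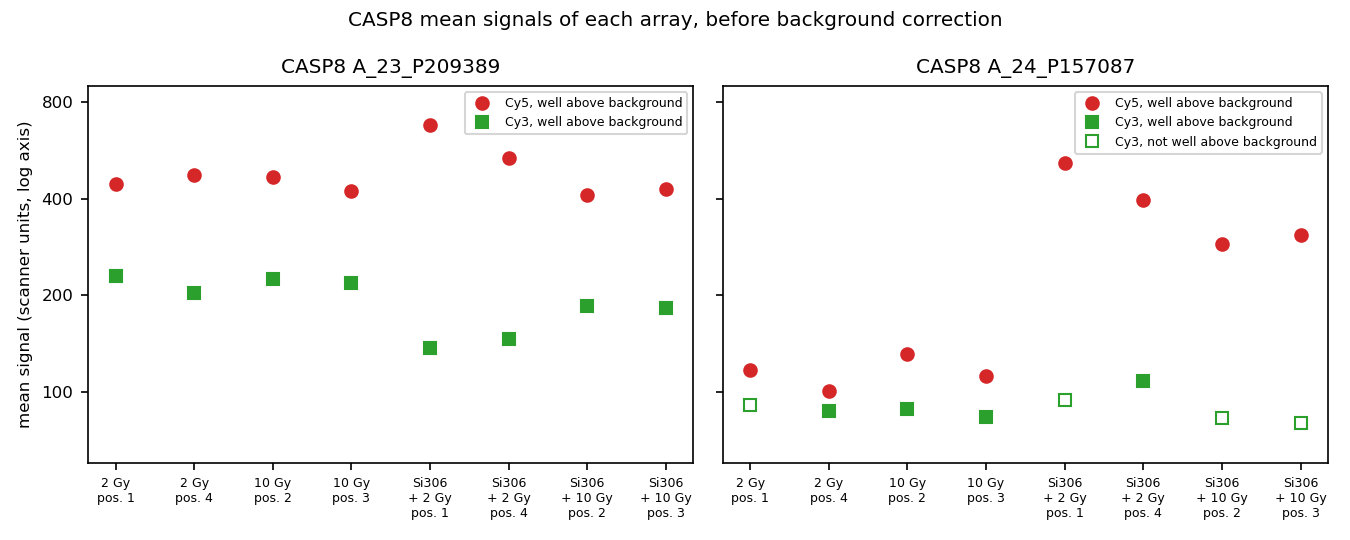
Mean signal of the 2 kept CASP8 probes on each of the 8 arrays, before background correction, in scanner units on a log axis; circles are Cy5 (treated RNA), squares are Cy3 (control RNA), and open squares are not well above background. The Cy5 signal of A_24_P157087 lay between 288 and 516.3 on the Si306 arrays and between 100.5 and 131.3 on the PT arrays. The 2 sets lay on different slides and are not compared in brightness.

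The 10 spots of A_23_P209389 lay between 0.79 and 0.91 on one array of U87 Si306 + 2 Gy, between 0.62 and 0.82 on the other, where 9 of the 10 spots were used, and between 0.33 and 0.60 on both arrays of U87 Si306 + 10 Gy. All spots used of the former therefore lay above all spots of the latter, though spots are repeats within an array and not replicates. The size of the ratio depended on the processing. Without background correction A_23_P209389 was at 0.79 and 0.46 and A_24_P157087 at 1.04 and 1.35 (Si306 + 2 Gy and Si306 + 10 Gy). The scanner software's own ratio also differs in dye normalization. With it A_23_P209389 was at 1.15 and 0.60 and A_24_P157087 at 2.20 and 3.35. The values with a few extreme local backgrounds kept as deposited, given above, were the lowest of the alternatives. The direction of both probes in the Si306 comparisons was the same under all alternatives tried, those without loess included. As these values chose the genes, that only describes them.

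PT alone changed CASP8 by a small amount that passed the test at 10 Gy. A_23_P209389 rose to 0.13 (SE 0.038, adjusted p = 0.013, limma, n = 2) and A_24_P157087 to 0.22 (SE 0.07, adjusted p = 0.02, limma, n = 2), the latter standing at −0.14 when arrays were centred on the median without loess. After 2 Gy the values were 0.07 (SE 0.038, adjusted p = 0.14, limma) and −0.04 (SE 0.07, adjusted p = 0.67, limma). The difference between the doses was 0.06 (95% interval −0.06 to 0.18, adjusted p = 0.5, limma) and 0.26 (0.04 to 0.48 unadjusted, adjusted p = 0.098, limma). The latter was called with the labelled replicate number as a block on single scans (0.24, adjusted p = 0.026, limma). Both calls at 10 Gy were lost when either 10 Gy array was left out, with adjusted p of 0.077 to 0.2, and with local backgrounds as deposited (0.08 and 0.13, adjusted p = 0.24 and 0.16) and with the scanner log ratio (0.11 and 0.65, adjusted p = 0.14 and 0.058). That of A_24_P157087 was also lost with scans averaged by array and label (0.09, adjusted p = 0.4). Without loess A_23_P209389 was called higher after 2 Gy (0.19, adjusted p = 0.0044) and A_24_P157087 lower (−0.53, adjusted p = 0.00023).

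The bases of A_23_P209389 were compared with all other gene probes of the array. It shared runs of 16 to 19 bases with 6 kept probes for other targets, 3 in the same orientation (PSPH, ZNF2 and R3HDM2) and 3 as the reverse complement (PXN and both unnamed targets), whereas A_24_P157087 shared no run of 16 bases with a probe for another gene. The 6 probes are assigned to PXN (paxillin, an adaptor of focal adhesions and a SRC substrate), PSPH (phosphoserine phosphatase of serine synthesis), ZNF2 (a zinc finger protein), R3HDM2 and 2 unnamed targets. Each of them was higher with Si306 at both doses in the fit with loess. With local backgrounds as deposited the calls were lost for ZNF2 A_23_P39223 (0.10 and 0.02, adjusted p = 0.078 and 1) and for PSPH A_23_P251987 at 10 Gy (0.05, adjusted p = 1, and 0.35 at 2 Gy), and without loess for ZNF2 A_23_P39223 at 10 Gy (0.13, adjusted p = 0.058). PXN A_23_P13969, whose reverse complement shares 19 bases, was at 0.66 and 0.43 (SE 0.032, adjusted p = 5.1e-08 and 1.2e-06, limma, n = 2) with Si306 + 2 Gy and Si306 + 10 Gy. PSPH A_23_P251987 was at 1.19 and 0.43 (SE 0.034, adjusted p = 2.2e-09 and 1.8e-06, limma). R3HDM2 A_23_P44631 was at 0.89 and 0.46 (SE 0.041), ZNF2 A_23_P39223 at 0.51 and 0.20 (SE 0.031), and the unnamed A_23_P201521 and A_23_P130187 at 0.88 and 0.62 (SE 0.036) and at 0.76 and 0.51 (SE 0.035). In this fit the medians of the 6 probes were 0.82 and 0.44, beside 0.79 and 0.45 for CASP8 A_23_P209389 and 0.03 and 0.02 over all 30418 probes tested. Without loess the 6 probes lay between 0.26 and 1.80 at 2 Gy and between 0.13 and 1.26 at 10 Gy, with 5 of them above CASP8 A_23_P209389 (0.83 and 0.57) at 2 Gy. With local backgrounds as deposited they lay between 0.10 and 0.85 and between 0.02 and 0.58, beside 0.23 and 0.07.

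Probes of the same genes without the shared run gave other values. PXN A_23_P409355 was at −0.16 and −0.26 (SE 0.035) and PXN A_24_P184555 at −0.30 and −0.02 (SE 0.036) with Si306 + 2 Gy and Si306 + 10 Gy, although the latter stood at 0.62 and 0.62 without loess and the former at −0.02 and −0.01 with local backgrounds as deposited. R3HDM2 A_24_P207907 was at −0.09 and −0.09 (SE 0.047) and R3HDM2 A_23_P10374 at 0.25 and 0.17 (SE 0.032). PSPH A_32_P78816 was at 0.57 and 0.31 (SE 0.035), PSPH A_23_P251984 at 0.43 and 0.23 (SE 0.06), and ZNF2 A_23_P142969 at 0.41 and 0.27 (SE 0.04). For PXN the probes thus pointed in opposite directions under loess, while for PSPH and ZNF2 they pointed the same way. Whether A_23_P209389 also binds RNA of other genes was not tested.

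**Figure D2:**
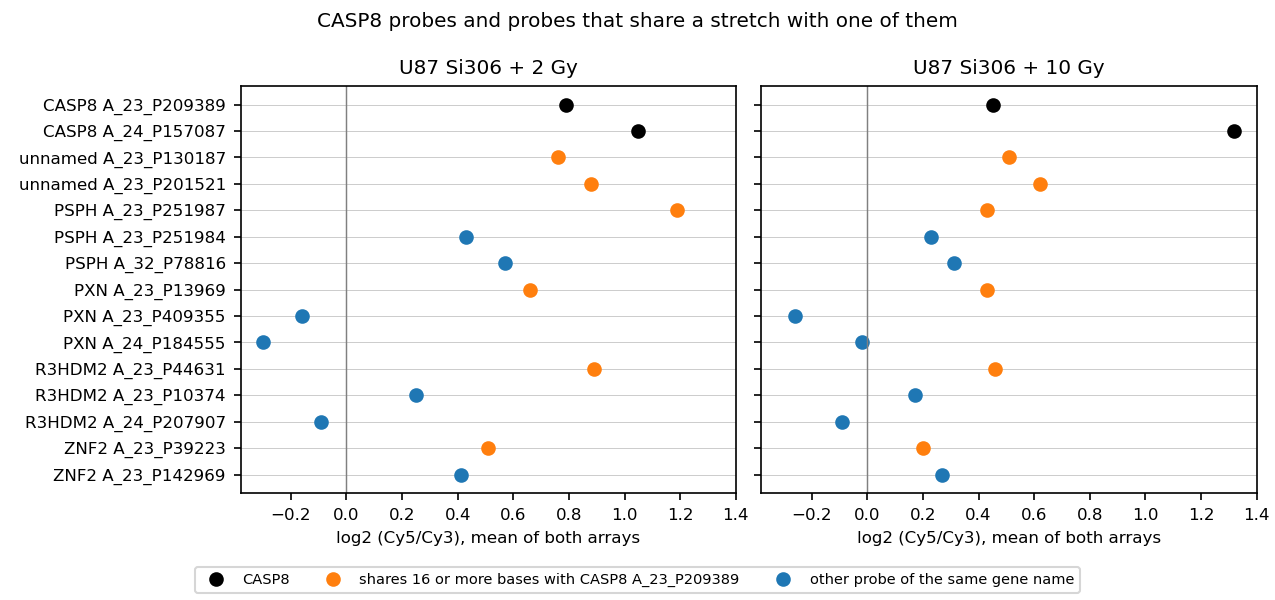
Log2 ratio with Si306 at each dose for both CASP8 probes (black), for the 6 probes of other targets that share 16 to 19 bases with A_23_P209389 in either orientation (orange) and for other probes of those genes (blue); each point is the mean of 2 arrays in the fit with loess. The 6 probes had medians of 0.82 and 0.44, beside 0.79 and 0.45 for CASP8 A_23_P209389.

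CFLAR and CASP10, which lie beside CASP8 on chromosome 2 within 151 kb of probe positions, did not have its Si306 ratios. CFLAR A_23_P209394 (chr2:201826237-201826296, plus strand) was at −0.23 and −0.32 with Si306 + 2 Gy and at −0.46 and −0.46 with Si306 + 10 Gy. The means were −0.28 (SE 0.034, n = 2; 0.18 without loess) and −0.46 (1.38-fold lower, SE 0.034, n = 2; −0.14 without loess). After PT alone the 4 arrays lay between −0.06 and −0.01, and the means of −0.05 and −0.04 passed no test (adjusted p = 0.23 and 0.36, limma), while without loess the probe was called higher at both doses (0.27 and 0.22, adjusted p = 0.00083 and 0.0028). Its probe reads
CFLAR A_23_P209394: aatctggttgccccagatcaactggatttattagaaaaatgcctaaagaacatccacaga
and has a reading frame without a stop codon. The other CFLAR probe, A_24_P120115, was above background in Cy5 on 2 arrays and in Cy3 on none, and its means lay between 0.00 and 0.09. In the fit with loess CFLAR A_23_P209394 and both kept CASP8 probes therefore had opposite signs with Si306, while CFLAR A_24_P120115 was at 0.00 and 0.02. The CASP8 values chose the genes, so this only describes them.

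CASP10 has 3 kept probes, and those that measured it well differed from each other. A_23_P209408 rose to 0.09 (0.12 and 0.06, SE 0.032, adjusted p = 0.031, limma, n = 2; −0.04 without loess) after 2 Gy and to 0.12 (0.13 and 0.10, adjusted p = 0.0089, limma) after 10 Gy. With Si306 it was at 0.00 (0.01 and 0.00) and 0.13 (0.12 and 0.13). A_24_P139993, 77 bases away, was at 0.09 (0.05 and 0.13, SE 0.037, adjusted p = 0.054, limma) after 2 Gy and rose to 0.17 (0.12 and 0.22, adjusted p = 0.0023, limma) after 10 Gy. With Si306 it was at −0.31 (−0.32 and −0.29) and −0.24 (−0.26 and −0.22). The 2 probes thus had like values with PT alone and, with Si306, values that did not overlap. The gap was smaller with local backgrounds as deposited, where the means with Si306 (2 Gy, then 10 Gy) were 0.00 and 0.02 (A_23_P209408) and −0.10 and −0.03 (A_24_P139993). A_24_P3045, in another part of the gene, was above background in Cy5 on 5 arrays and in Cy3 on 4, and its means lay between −0.08 and 0.06. The 2 Gy call of A_23_P209408 was lost without the array at position 1 (0.06, adjusted p = 0.27), and its 10 Gy call without that at position 2 (0.10, adjusted p = 0.1). The 10 Gy call of A_24_P139993 was lost without the array at position 3 (0.12, adjusted p = 0.074). None of these 3 calls was kept without loess (10 Gy 0.02 and 0.06, adjusted p = 0.66 and 0.22) or with local backgrounds as deposited (2 Gy 0.01, 10 Gy 0.07 and 0.06).

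CASP9, the apoptosome initiator, fell after 10 Gy on both probes in the fit with loess. A_24_P111342 was at −0.22 and −0.21 (mean −0.21, 1.16-fold lower, SE 0.032, adjusted p = 2e-04, limma, n = 2; 0.07 without loess), and A_23_P97309 at −0.11 and −0.08 (mean −0.10, SE 0.03, adjusted p = 0.017, limma; 0.17 without loess). After 2 Gy they were at −0.07 and −0.01 and at 0.00 and −0.01, and neither mean passed the test (adjusted p = 0.3 and 0.97, limma), while without loess both probes were called higher (0.32 each, adjusted p = 0.00028 and 0.00015). Other settings called them lower, A_24_P111342 with a GC curve per array (−0.09, adjusted p = 0.042, limma) and A_23_P97309 with the scanner log ratio (−0.10, adjusted p = 0.022, limma). The difference between the doses was −0.17 (SE 0.046, adjusted p = 0.024, limma) for A_24_P111342 and −0.10 (SE 0.043, adjusted p = 0.15, limma) for A_23_P97309. With Si306 the probes parted: A_23_P97309 was at 0.29 and 0.31 with Si306 + 2 Gy and at 0.37 and 0.36 with Si306 + 10 Gy. A_24_P111342 was at −0.15 and −0.09 and at −0.10 and −0.09, although it stood at 0.43 and 0.29 without loess. No value of A_23_P97309 in the Si306 comparisons overlapped with one of A_24_P111342, so in the fit with loess the direction of CASP9 with Si306 depends on which of 2 neighbouring probes is read. The falls after 10 Gy did not pass the test with local backgrounds as deposited (A_24_P111342 −0.14, adjusted p = 0.11, and A_23_P97309 −0.06, adjusted p = 0.2). That of A_23_P97309 was also lost without either 10 Gy array (−0.08 and −0.11, adjusted p = 0.15 and 0.054).

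CASP2 moved little. A_23_P387943 was at −0.07 and −0.01 after 2 Gy (mean −0.04, SE 0.037, adjusted p = 0.36, limma) and at 0.07 and 0.16 after 10 Gy, where the mean of 0.12 passed the test (SE 0.037, adjusted p = 0.02, limma, n = 2) but not without the array at position 3 (0.07, adjusted p = 0.28), with the scanner log ratio (0.05, adjusted p = 0.31), with scans averaged by array and label, or with local backgrounds as deposited (0.04, adjusted p = 0.18). With the scanner log ratio this probe was called lower after 2 Gy (−0.14, adjusted p = 0.037, limma). Its difference between the doses, 0.16 (SE 0.053, adjusted p = 0.06, limma), was called in some settings, such as a GC curve per array (0.18, adjusted p = 0.035, limma). With Si306 the probe was at −0.27 and −0.17 and at −0.20 and −0.21. A_24_P269398 lay between 0.01 and 0.08 on the 4 PT arrays, and at 0.09 and 0.03 with Si306 + 2 Gy and −0.12 and −0.06 with Si306 + 10 Gy. Its PT means of 0.03 and 0.06 did not pass the test (adjusted p = 0.46 and 0.13, limma).

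**Figure D3:**
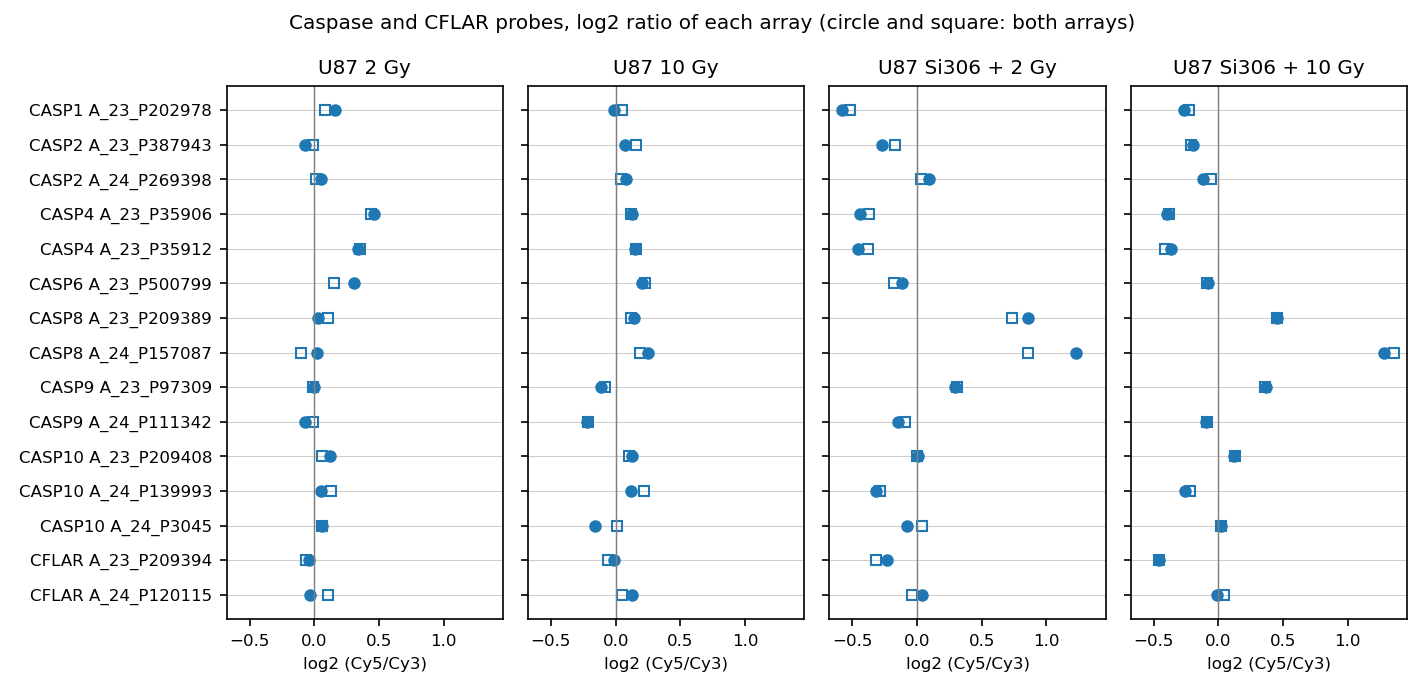
Log2 ratio of every kept probe of the 8 genes in the 4 configurations; the circle and the square are the 2 arrays. In this fit with loess and replaced local backgrounds CASP8 has the highest Si306 ratios (0.79 and 0.45, 1.05 and 1.32), which at 0.23 and 0.07 and 0.23 and 0.11 with local backgrounds as deposited lie below those of CASP9 A_23_P97309 (0.29 and 0.31), as does A_23_P209389 with Si306 + 10 Gy without loess (0.57 beside 0.71), and for CASP9 and CASP10 the probes differ with Si306.

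CASP4, the inflammatory caspase that senses lipopolysaccharide in the cytosol, had the largest response of the 8 genes to 2 Gy of PT in the fit with loess, and a smaller one to 10 Gy. Of its 2 probes, the one at chr11:104320702-104320761 on the minus strand reads
CASP4 A_23_P35912: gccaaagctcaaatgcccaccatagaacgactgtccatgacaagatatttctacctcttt
and was at 0.34 and 0.35 after 2 Gy and at 0.15 and 0.16 after 10 Gy. The means were 0.34 (1.27-fold, SE 0.033, adjusted p = 7.9e-06, limma, n = 2) and 0.16 (1.11-fold, SE 0.033, adjusted p = 0.0021, limma, n = 2). A_23_P35906, 1.8 kb away, was at 0.46 and 0.44 after 2 Gy and at 0.13 and 0.12 after 10 Gy. The means were 0.45 (1.36-fold, SE 0.032, adjusted p = 9.2e-07, limma) and 0.12 (1.09-fold, SE 0.032, adjusted p = 0.007, limma). Over all alternatives they ranged from 0.34 to 0.88 and from 0.12 to 0.46. Those of A_23_P35912 ranged from 0.26 to 0.78 and from 0.12 to 0.50. The 10 Gy arrays lay below the 2 Gy arrays on both probes. The difference, 10 Gy minus 2 Gy, was −0.33 (SE 0.045, adjusted p = 0.00088, limma) for A_23_P35906 and −0.19 (SE 0.047, adjusted p = 0.018, limma) for A_23_P35912. The 10 Gy call of A_23_P35906 was lost when either 10 Gy array was left out (0.12 and 0.13, adjusted p = 0.065 and 0.053), while the calls of both probes at 2 Gy were kept whichever array was left out. The difference between the doses on A_23_P35912 was lost when any of the 4 PT arrays was left out (−0.18 to −0.20, adjusted p = 0.05 to 0.086).

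With Si306 the CASP4 probes were alike and lower in the fit with loess. A_23_P35906 was at −0.44 and −0.37 with Si306 + 2 Gy and at −0.40 and −0.38 with Si306 + 10 Gy. A_23_P35912 was at −0.46 and −0.38 and at −0.37 and −0.41. The means were −0.40 and −0.39 (SE 0.032) and −0.42 and −0.39 (SE 0.033), which is 1.31-fold to 1.34-fold lower. Without loess, after centring on the median alone, the same probes stood at 0.35, 0.13, 0.32 and 0.12, so this direction depends on the intensity-dependent centring.

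**Figure D4:**
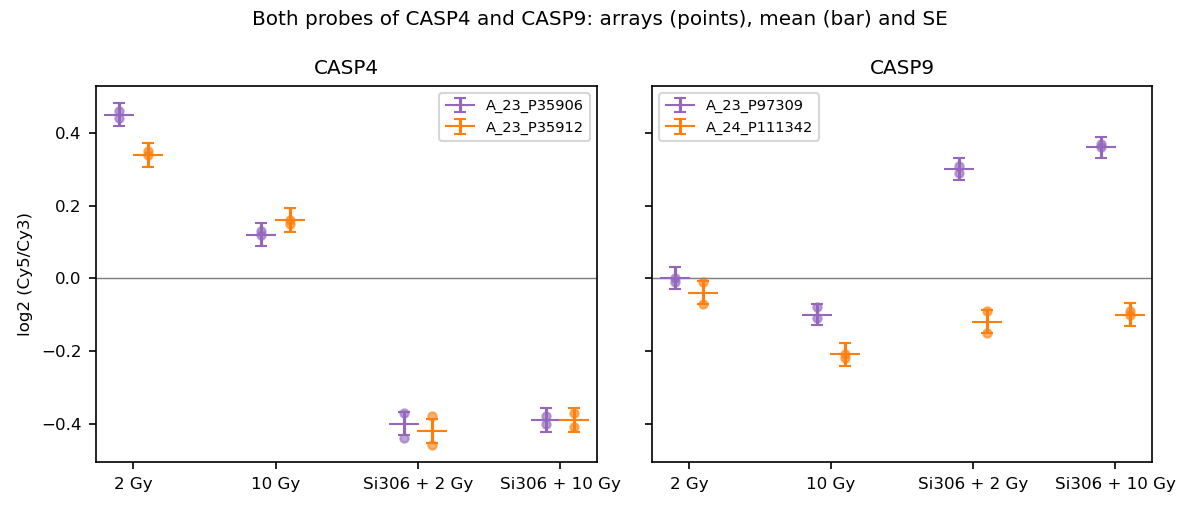
Log2 ratios (Cy5/Cy3) of the CASP4 and CASP9 probes in the 4 configurations in the fit with loess; points are the 2 arrays, horizontal bars the means and error bars the SE. The difference between the doses was −0.33 and −0.19 on the CASP4 probes and −0.17 on CASP9 A_24_P111342.

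CASP1, which cuts the precursors of interleukins, has 1 probe, and its recorded span on chromosome 11 is 545 bases (chr11:104402268-104402812, minus strand). It lies 81.5 kb from CASP4.
CASP1 A_23_P202978: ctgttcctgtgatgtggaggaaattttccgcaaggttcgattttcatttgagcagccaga
After 2 Gy it was at 0.16 and 0.08 (mean 0.12, SE 0.035, adjusted p = 0.014, limma, n = 2), a call lost without the array at position 1 (0.08, adjusted p = 0.19), with the scanner log ratio (0.08, adjusted p = 0.12) and with local backgrounds as deposited (0.07, adjusted p = 0.51), while without loess it stood at 0.37. After 10 Gy it was at −0.01 and 0.05 (mean 0.02, adjusted p = 0.6, limma), while without loess it was called higher (0.24, adjusted p = 0.00085). With Si306 it was at −0.58 and −0.52 at 2 Gy and at −0.27 and −0.23 at 10 Gy, with means of −0.55 (1.46-fold lower, SE 0.035) and −0.25 (1.19-fold lower, SE 0.035), the latter standing at 0.04 without loess. Without loess the 2 Gy mean stood at −0.18. Its probe shares 16 bases with a probe named NP101106, which was at −0.45 and −0.23 (SE 0.036) with Si306, and at 0.22 and 0.24 without loess.

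CASP6, the member that acts downstream of the initiators, rose alike at both doses. Its single probe, chr4:110968249-110968308 on the minus strand, reads
CASP6 A_23_P500799: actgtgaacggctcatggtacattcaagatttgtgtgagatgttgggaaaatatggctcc
and was at 0.31 and 0.15 after 2 Gy and at 0.20 and 0.23 after 10 Gy. The means were 0.23 (1.17-fold, SE 0.04, adjusted p = 0.00063, limma, n = 2) and 0.22 (1.16-fold, SE 0.04, adjusted p = 0.00084, limma, n = 2), and over all alternatives they ranged from 0.10 to 0.46 and from 0.13 to 0.43. The difference between the doses was −0.01 (95% interval −0.14 to 0.11, adjusted p = 0.91, limma). With local backgrounds as deposited neither dose passed the test (adjusted p = 0.39 and 0.13). With Si306 it was at −0.12 and −0.18 and at −0.08 and −0.09, and the mean of −0.15 (SE 0.04) at 2 Gy stood at 0.14 without loess.

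Counted over the 15 kept probes, 5 rose and 0 fell after 2 Gy, while 31.8% of all probes tested were called higher and 24.9% lower. At an unadjusted p under 0.05 the counts were 6 and 0. After 10 Gy, 8 rose and 2 fell, beside 31.5% and 27.0% of all probes. The median log2 ratio of the 15 probes was 0.06 and 0.12, against 0.02 and 0.01 over all probes. Without loess the counts after 2 Gy were 8 and 3, in a fit that called 81.9% of all probes. The difference between the doses was called for 0 probes upwards and 3 downwards, beside 9.42% and 10.7% of all probes, and the counts at an unadjusted p under 0.05 were 2 and 4. In the Si306 comparisons the genes were picked from these values, so the counts at the same threshold only describe them, and nothing is read from them. They were 3 higher and 8 lower with Si306 + 2 Gy, beside 36.2% and 28.6% of all probes. With Si306 + 10 Gy 4 were higher and 8 lower, beside 32.4% and 27.6%. The median SD of the log2 ratio between the 2 arrays of a configuration was 0.034 for these probes and 0.039 for all kept probes.

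The genes around these caspases were followed in 5 lists with 60 genes, of which 53 had a kept probe. The brightest probe stood for each gene. After 2 Gy 19 of the 53 rose and 15 fell, beside 31.7% and 24.6% of all gene names tested. After 10 Gy 18 rose and 17 fell, beside 31.2% and 26.4%. With Si306 + 2 Gy 18 rose and 22 fell, beside 38.3% and 27.7%, and with Si306 + 10 Gy 18 rose and 18 fell, beside 34.3% and 26.8%. The counts of the single lists below stand beside these same shares, and no list was tested as a set. The medians over the lists were 0.04, −0.04, −0.03 and 0.00, against 0.02, 0.01, 0.04 and 0.02 over all gene names. Without loess the split turned towards rises, with 28 and 13 after 2 Gy, 29 and 15 after 10 Gy, 35 and 10 with Si306 + 2 Gy, and 33 and 5 with Si306 + 10 Gy, in a fit that called 78.2% to 87.6% of all probes.

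Of the death ligands and receptors, 6 of 10 rose and 2 fell after 2 Gy, and 7 rose and 1 fell after 10 Gy, with medians of 0.16 and 0.11. Of all gene names, 31.7% and 31.2% were called higher at these doses and 24.6% and 26.4% lower. The rises include TNFRSF10D (0.19 and 0.13), whose control was well above background on none of the arrays of PT alone. FAS, the receptor that recruits CASP8 through FADD, had the largest rise of the lists after 10 Gy, at 1.11 and 1.08 (mean 1.10, 2.14-fold, SE 0.031, adjusted p = 1e-09, limma, n = 2). It was also higher after 2 Gy (0.41, SE 0.031, adjusted p = 1.4e-06, limma). TNFRSF10C, a receptor for the same ligand as TNFRSF10A and TNFRSF10B that lacks a death domain, rose to 0.46 (1.38-fold, SE 0.045, adjusted p = 8.5e-06, limma) after 2 Gy and to 0.83 (1.78-fold, SE 0.045, adjusted p = 1e-07, limma) after 10 Gy. With Si306 the list was divided, as 2 rose and 3 fell with the 2 Gy dose, while 3 rose and 1 fell with the 10 Gy dose.

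Of the adaptors and activating platforms, 5 of 15 rose and 4 fell after 2 Gy, and 4 rose and 4 fell after 10 Gy. With Si306, 6 rose and 6 fell at 2 Gy and 6 rose and 8 fell at 10 Gy. APAF1, the scaffold of the apoptosome that activates CASP9, rose with Si306 + 2 Gy to 0.52 (0.55 and 0.50, SE 0.032, adjusted p = 2.4e-07, limma) and with Si306 + 10 Gy to 0.62 (0.62 on both arrays, adjusted p = 1.1e-07, limma). Its probe was well above background in both dyes on only 4 of the arrays, those of the Si306 comparisons. With the scanner log ratio it stood at 0.70 and 0.87 (SE 0.24, adjusted p = 0.048 and 0.026, limma). PYCARD, the adaptor that links inflammasome sensors to CASP1, rose to 0.55 (SE 0.05, adjusted p = 5e-06, limma) with Si306 + 10 Gy, and AIM2, a DNA sensor of that pathway, fell to −0.53 (SE 0.034, adjusted p = 3.6e-07, limma) with Si306 + 2 Gy. Both were called in the same direction at the other dose, PYCARD at 0.21 (adjusted p = 0.0033, limma) and AIM2 at −0.20 (adjusted p = 0.00051, limma).

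Of the other caspases and the decoys of CASP1, 2 of 5 rose and 0 fell after 2 Gy, while 1 rose and 3 fell after 10 Gy. With Si306, 1 rose and 4 fell at 2 Gy and 1 rose and 3 fell at 10 Gy. Of the inhibitors of apoptosis and their antagonists, 2 of 10 rose and 4 fell after 2 Gy and again 2 and 4 after 10 Gy. With Si306, 1 rose and 5 fell at 2 Gy and 1 rose and 4 fell at 10 Gy. BIRC2, a ubiquitin ligase that holds back CASP8 activation by TNF receptors, fell to −0.59 (1.51-fold lower, SE 0.035, adjusted p = 2.5e-07, limma) after 2 Gy and to −0.52 (1.43-fold lower, adjusted p = 4.9e-07, limma) after 10 Gy, and stood at −0.25 and −0.24 without loess. XAF1, an interferon-inducible antagonist of XIAP, fell with Si306 + 2 Gy to −1.17 (2.25-fold lower, SE 0.036, adjusted p = 3.3e-09, limma) and with Si306 + 10 Gy to −0.60 (1.52-fold lower, adjusted p = 2.9e-07, limma).

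Of the 13 caspase substrates and products, 4 rose and 5 fell at each dose of PT alone. With Si306, 8 rose and 4 fell at 2 Gy and 7 rose and 2 fell at 10 Gy. SPTAN1, the spectrin chain that caspases cut, rose to 0.51 (SE 0.041, adjusted p = 2.3e-06, limma) after 2 Gy and to 0.75 (adjusted p = 1.1e-07, limma) after 10 Gy. GSDME, a gasdermin that caspase cleavage activates, fell to −0.43 at both doses (1.35-fold lower, SE 0.03, adjusted p = 7.3e-07 and 6.1e-07, limma). LMNB1, a lamin, rose to 0.55 (SE 0.038, adjusted p = 5.8e-07, limma) with Si306 + 2 Gy and to 0.25 (adjusted p = 2e-04, limma) with Si306 + 10 Gy. PARP1, a DNA repair enzyme and long-used marker substrate, fell to −0.42 (SE 0.03, adjusted p = 9e-07, limma) with Si306 + 10 Gy but stood at 0.06 without loess. In the fit with loess it was also lower with Si306 + 2 Gy (−0.37, adjusted p = 1.7e-06, limma). GSDME (−0.01 and −0.09 at 2 Gy and 10 Gy) and AIM2 with Si306 + 2 Gy (−0.06) passed no test without loess. With local backgrounds as deposited the calls were lost for SPTAN1 after 2 Gy (0.34, adjusted p = 0.14), TNFRSF10C (0.14 and 0.48, adjusted p = 0.98 and 0.1), APAF1 with Si306 + 10 Gy (0.09, adjusted p = 0.18) and XAF1 with Si306 + 10 Gy (−0.11, adjusted p = 0.78), and with Si306 + 2 Gy XAF1 stood at −0.41 and APAF1 at 0.17.

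**Figure D5:**
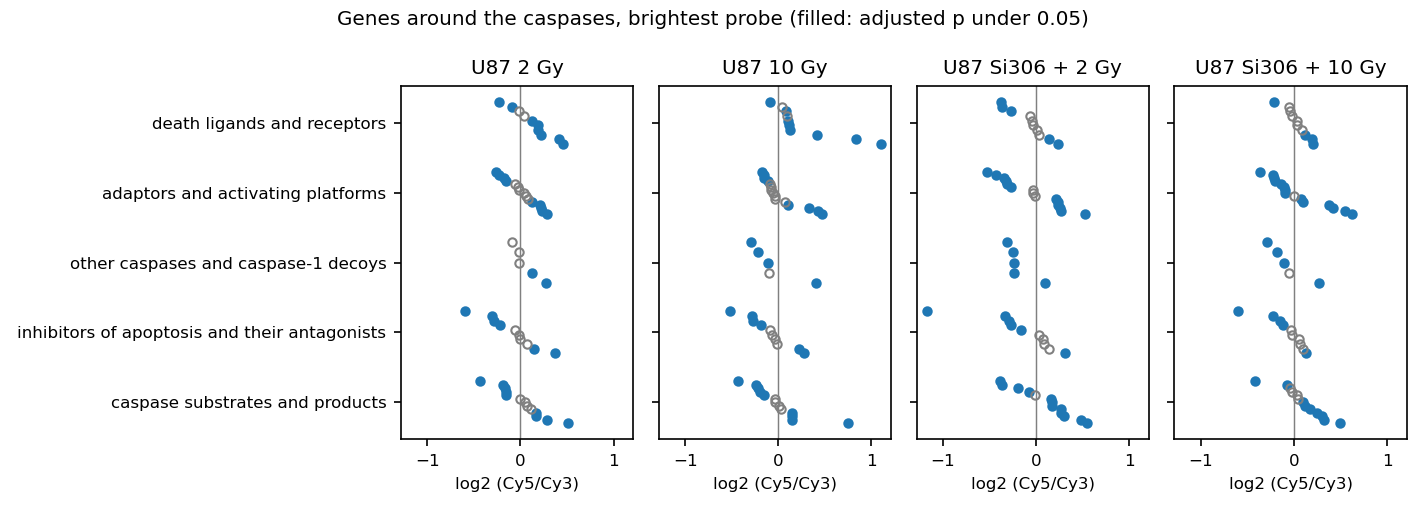
Log2 ratio of each of the 53 measured genes of the 5 lists in the 4 configurations, 1 point per gene as the mean of 2 arrays, filled where the adjusted p was under 0.05 (limma). FAS at 1.10 after 10 Gy and XAF1 at −1.17 with Si306 + 2 Gy lie farthest from 0.

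The genes most like CASP8 A_23_P209389 were sought over the log2 ratios of the 8 arrays among 14123 gene names, by the root mean square difference. They were PCDH20 (0.057), ZNF713 (0.063), FAM116A (0.072), HSUP1 (0.074) and PTPRR (0.076, in log2 units). Their probes share no run of 16 bases with that of CASP8. PCDH20 was not well above background on the arrays of PT alone. The likeness rests mostly on the Si306 arrays, where the 5 genes lay between 0.69 and 0.85 at 2 Gy and between 0.36 and 0.48 at 10 Gy.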

How the data were processed

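For 24 samples of U87 cells the deposited tables of the scanner software, per the file headers Agilent Feature Extraction 9.5.3.1, hold the mean signal intensity and local background intensity of each spot in both dyes and a log10 ratio, which the authors' software had background-corrected and dye-normalized. The deposited series matrix holds that log10 ratio again (largest difference 0.005). The intensities were used here. Local backgrounds more than 100 units above their own spot, at most 26 per channel of a scan and present in 20 scans, were replaced by the scan's median, since they raised the SD of normexp's background from between 0.756 and 6.8 to between 36.1 and 1350. This step was added after the data were seen, and the planned version without it is given as an alternative. Signals were then corrected with normexp (offset 50), each scan's log2 ratios (Cy5 over Cy3) were centred by loess with control and outlier spots at weight 0, and spots of a probe and scans of an array were averaged. The 22 scans used thus gave 8 arrays. A probe was kept if well above background in either dye on 2/3 or more of the arrays in any configuration, which left 30418 of 41000. All 4 configurations were fitted together with limma 3.58.1 in R 4.3.3 (version 1.17.8 of data.table), with means tested against 0 and the doses of PT alone against each other. Residual degrees of freedom were 4, the prior added 6.34 with an SD of 0.054, and p-values were Benjamini-Hochberg adjusted over all probes kept, with calls at 0.05. SE are limma's. The script was tested on simulated data. The number of arrays limits the precision.

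The 8 genes and the lists were chosen with earlier results of these data known. Genes of the lists were named by a rule (per configuration the 2 largest rises and the 2 largest falls that passed the test in the same direction on both arrays, and any log2 ratio of 1 or more either way), and the 5 genes most like CASP8 were named by their distance. Probes for other targets were compared by shared runs of 16 bases or more in either orientation. Some genes and 1 probe sequence are not reported here. The labelled replicate numbers did not pair the scans. The correlation of deviations lay between −0.07 and 0.08 over 30 same-numbered pairs, with none over 0.1. Alternatives changed background, normalization, filter, probes per gene, use of scans, block, slide, GC content and arrays.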

Additional observations from a re-analysis of the deposited data

Results flagged for a closer look

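Of the differences between the doses of PT alone (10 Gy minus 2 Gy), 3 passed the test, with values of −0.33 for CASP4 A_23_P35906, −0.19 for CASP4 A_23_P35912 and −0.17 for CASP9 A_24_P111342. Each drew attention because the effect of irradiation differed between the doses by a test of that difference (limma, adjusted p = 0.00088, 0.018 and 0.024, n = 2 arrays per dose). In each case both 10 Gy arrays lay below both 2 Gy arrays. For CASP4 the rise was smaller at the higher dose, and in the main fit a fall of CASP9 was called at 10 Gy only. In other settings A_24_P111342 was also called lower at 2 Gy. They were a GC curve per array (−0.09), every scan its own replicate (−0.07) and the replicate block on single scans (−0.05). The arrays of each dose lay at fixed positions on the slide, so position and dose cannot be told apart.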

How the results depend on the processing

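Main counts of calls were 5 (2 Gy), 10 (10 Gy) and 3 (difference between the doses) of 15 probes, and 34, 35, 40 and 36 of 53 pathway genes (2 Gy, 10 Gy, Si306 + 2 Gy, Si306 + 10 Gy). With local backgrounds as deposited, as first planned (their replacement was chosen after seeing the data), they were 2, 2, 1 and 11, 9, 21, 7, in a fit that called 11.4%, 12.4%, 22.6% and 13.7% of all probes in the 4 configurations and 1.4% for the difference. The difference between the doses (20.1% of all probes called) gave 1 call with the scanner log ratio (15.1%), 1 with the series matrix (15.1%), 5 with every scan its own replicate (24.8%) and 0 (unadjusted 0) with scans averaged by array and label (0% of all probes), where Si306 + 10 Gy gave 23 pathway genes. The labelled replicate number as a block on single scans gave 9 at 2 Gy (69.9% of all probes called) and 9 for the difference (42.7%), and 13 at 10 Gy (71.5%). At 2 Gy there were 11 calls without loess (81.9% of all probes called) and 8 with every scan its own replicate (69.9%), and at 10 Gy 6 with 1 probe per gene (8 probes; 57.8%). Leaving out 1 array gave 3 to 6, 5 to 10 and 1 to 4 calls, and 29 to 34, 26 to 36, 35 to 41 and 22 to 37 pathway genes. The lowest, 22, came without Si306 + 10 Gy position 3, and 3 at 2 Gy without 2 Gy position 1. Slide as a block allowed only the difference (3 calls). The cause of these shifts was not tested. CASP9 A_24_P111342 lost its dose difference without 2 Gy position 4 (−0.14, adjusted p = 0.11) and without either 10 Gy array (adjusted p = 0.094 and 0.092), with the scanner log ratio (0.068), without loess (0.051), with scans averaged by array and label (1) and with local backgrounds as deposited (0.45), CASP4 A_23_P35912 with the scanner log ratio (0.072), scans averaged by array and label (1) and local backgrounds as deposited (0.1), and CASP4 A_23_P35906 kept its own except with scans averaged by array and label (−0.12, adjusted p = 1).

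Without loess, signs turned, counting values past the threshold in the fit with loess or, for PT alone, in either fit, for CASP1 in Si306 + 10 Gy (0.04), CASP4 A_23_P35906 (Si306 + 2 Gy 0.35, + 10 Gy 0.13), CASP4 A_23_P35912 (0.32, 0.12), CASP6 in Si306 + 2 Gy (0.14), CASP8 A_24_P157087 at 10 Gy (−0.14), CASP9 A_23_P97309 (2 Gy 0.32, 10 Gy 0.17), CASP9 A_24_P111342 (2 Gy 0.32, 10 Gy 0.07, Si306 0.43 and 0.29), CASP10 A_23_P209408 at 2 Gy (−0.04), CASP10 A_24_P3045 at 2 Gy (−0.46), CFLAR A_23_P209394 (2 Gy 0.27, 10 Gy 0.22, Si306 + 2 Gy 0.18), CFLAR A_24_P120115 (2 Gy −0.61, 10 Gy −0.45) and PARP1 in Si306 + 10 Gy (0.06). With local backgrounds as deposited CASP9 A_24_P111342 in Si306 + 10 Gy stood at 0.01. Dim probes, such as CASP8 A_24_P157087, limit what the ratios show.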

Other observations

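The 2 scans left out because label and array disagree carried CASP4 values of their array and not of their label. On A_23_P35906 the scan labelled U87 2 Gy replicate 5, though read from a 10 Gy array, was at 0.14, beside means of 0.45 at 2 Gy and 0.12 at 10 Gy. The scan labelled U87 10 Gy replicate 2, from a 2 Gy array, was at 0.42. On A_23_P35912 they were at 0.13 and 0.30, beside 0.34 and 0.16. Over all probes kept the first correlated with r = 0.84 with the configuration of its label and 0.977 with that of its array, and the second with 0.838 and 0.955, as a description across probes, which are not independent.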
